A study of Homo sapiens with 6 samples.

Results

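Tubulin genes were followed in MDA-MB-231 cells, a line of human breast cancer that lacks hormone receptors, after treatment with Parishin B (PB), the compound that the study tested against the pseudokinase TRIB3. The 10 genes described here encode 4 alpha tubulins (TUBA1A, TUBA1B, TUBA1C and TUBA4A) and 6 beta tubulins (TUBB, TUBB2A, TUBB2B, TUBB3, TUBB4B and TUBB6). They were taken by gene symbol from a table of 61806 genes, where each symbol occurred once, and all 10 passed the filter on low values. The control group had 3 samples without PB and the treated group had 3 samples with 20 μM PB for 24 h, all from the same line, with no other agent or allele named and no vehicle stated for the control. Whether the 3 samples of a group were separate cultures is not stated, so the spread between these samples may be technical. In the main test that spread was pooled over genes, so a gene's p-value and standard error do not measure its own spread. Levels are given in FPKM, which divides a gene's count by its exonic length and the total of that sample. Log2 fold changes come from counts scaled by TMM, a library scaling that trims extreme genes, so they sit slightly lower than ratios of FPKM.

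Microtubules are hollow polymers of alpha-beta tubulin dimers, and they form the mitotic spindle and the tracks of intracellular transport. Vertebrate cells carry several genes for each subunit, called isotypes, whose protein products are nearly alike in the body and differ most in the acidic C-terminal tail that protrudes from the microtubule surface. TUBB, TUBB4B, TUBA1B and TUBA1C are broadly expressed, TUBB3 and TUBB2B are best known from neurons, and TUBB3 is often studied in tumours because beta tubulin is the target of taxanes. Cells also control tubulin mRNA by autoregulation, in which free dimers trigger the decay of tubulin mRNA through the factor TTC5, which reads the first residues of the nascent chain on the ribosome.

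The first 4 codons are shown because they carry the signal of autoregulation, with the codons after the start codon in capitals. They come from the GENCODE 29 transcripts (GRCh38) and are written 5′ to 3′.
TUBA1A, TUBA1B and TUBA1C: atgCGTGAGTGC
TUBA4A: atgCGTGAATGC
TUBB and TUBB4B: atgAGGGAAATC
TUBB3 and TUBB6: atgAGGGAGATC
TUBB2A: atgCGCGAGATC
TUBB2B: atgCGTGAGATC
The 4 alpha genes used 2 distinct versions of these codons and the 6 beta genes used 4, and within each subunit the versions are synonymous. The genes that fell and the beta genes that did not pass the test, TUBB2B and TUBB3, encode the same first residues within their subunit.

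The last 60 coding bases, stop codon included, are shown for TUBA4A and 5 beta genes because they encode the tail in which isotypes differ most.
TUBA4A: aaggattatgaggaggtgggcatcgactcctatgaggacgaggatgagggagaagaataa
TUBB: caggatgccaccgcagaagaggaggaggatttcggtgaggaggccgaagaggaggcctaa
TUBB4B: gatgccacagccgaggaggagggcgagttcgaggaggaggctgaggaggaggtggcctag
TUBB2A: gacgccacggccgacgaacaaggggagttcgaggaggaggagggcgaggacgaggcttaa
TUBB2B: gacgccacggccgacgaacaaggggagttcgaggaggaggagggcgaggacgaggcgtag
TUBB3: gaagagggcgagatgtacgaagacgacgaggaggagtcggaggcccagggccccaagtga
The 6 beta genes had 6 distinct base strings here, which encode 5 distinct tails, since TUBB2A and TUBB2B differ in synonymous bases and in their stop codon. Over the whole coding sequence, identity between alpha genes was 84.4% to 97.2% and between beta genes 81.0% to 98.1%. The closest pair was TUBB2A and TUBB2B with 98.1%, so reads of this pair can be hard to assign. Of the windows of 150 bases, the read length, in the TUBB2A transcript, 49.4% also occurred in another tubulin transcript, and for TUBB2B this was 39.4%. The share was 19.1% for TUBA1B, 12.6% for TUBA1A, 6.77% for TUBA1C, 2.5% for TUBB and 2.22% for TUBB3. With transcripts of any gene counted, the share rose to 64.2% for TUBA1B, 23.9% for TUBA1C, 23.7% for TUBA4A and 18.0% for TUBB. TUBA4A, TUBB4B and TUBB6 shared 0 of their 2013, 1488 and 1915 windows with another tubulin.

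Total counts per sample lay between 15681655 and 21986948, and replicates of a group differed by slightly more than sampling noise (chi-square per degree of freedom 1.45 to 1.92, against at least 71.1 between groups). The mesenchymal markers VIM, CD44, CAV1, AXL, FOSL1 and PLAU were high in every sample. Their summed level was 1165 to 1192 FPKM in control samples and 1104 to 1110 FPKM with PB. In the test given below all 6 were lower (median log2 fold change -0.42, and -1.16 for CAV1). By that test 53.6% of genes with a mean of at least 10 FPKM were lower. In FPKM, VIM was higher (means of 603.0 and 635.0) and FOSL1 overlapped between groups. The 5 luminal and hormone receptor markers summed to 4.24 to 4.37 FPKM in control samples and 4.61 to 4.91 FPKM with PB. The 6 neuronal, 6 fibroblast and 5 leukocyte markers summed to at most 3.15, 0.59 and 0.85 FPKM in any sample. Some genes were nearly confined to the control group. A minimum of 30 counts in each control sample with no more than 3 in each treated sample was met by 113 genes, against 1 gene in the opposite direction. These 113 genes took 0.178% to 0.181% of the control counts, and their part in the tubulin results was not tested. In bulk RNA, fewer cells of a type and less RNA per cell cannot be told apart.

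Most tubulin mRNA was lower in PB-treated cells. Of the 10 genes, 8 were lower, 0 were higher and 2 did not pass the test at an adjusted p of at most 0.05 (edgeR quasi-likelihood test, Benjamini-Hochberg adjustment over 24200 genes). Over all tested genes, 26.1% were lower by the same rule. Calls in either direction made up 50.2% of all tested genes, and 24.1% were higher. Among the 4492 genes with a mean of 10 FPKM or more, 53.6% were lower. Genes whose log2 fold change also reached 1 in size were named differentially expressed genes (DEGs). Of the members 6 were lower DEGs and 0 were higher DEGs, beside 6.73% and 5.36% of all tested genes (12.1% in either direction) and 6.72% lower among the genes of 10 FPKM or more. The median log2 fold change of the 10 members was -1.05, beside 0.011 for all tested genes, -0.13 for the 4492 genes with a mean of at least 10 FPKM and -0.41 for 16 housekeeping genes (10 lower, 4 higher). The housekeeping genes ran from -1.06 for PPIA, a lower DEG, to 0.36. In FPKM, 7 members had all 3 PB values under the lowest control value, as did 21.6% of all tested genes, and 0 members had the reverse, as did 34.1%. An exact two-sided permutation test of a single gene cannot go below p = 0.1 with 3 samples against 3. Together the 10 genes took 0.365% to 0.369% of all counts in control samples and 0.179% to 0.186% with PB.

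**Figure D1:**
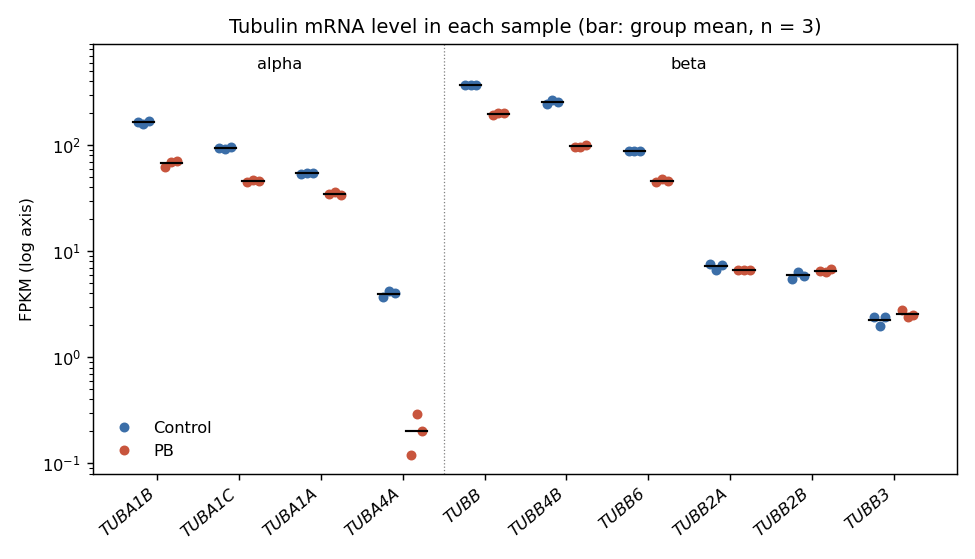
FPKM of the 10 tubulin genes (log axis) in the 3 control samples (blue) and the 3 PB samples (red), with the group mean as a bar. TUBB, TUBB4B, TUBB6 and the 4 alpha genes lie lower with PB in every sample, from a mean of 370.4 to 198.4 FPKM for TUBB, while TUBB2A, TUBB2B and TUBB3 overlap between groups.

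TUBB, the broadly expressed class I beta tubulin, was the most abundant of the 10 in both groups. It lies on chromosome 6 from 30717435 to 30725538 (ENSG00000196230), and all gene positions are those of the deposited table, on hg38. The level of TUBB was 372.5, 367.8 and 370.9 FPKM in the control samples and 193.7, 199.1 and 202.2 FPKM with PB. The groups were far apart, with a control spread of a few FPKM. The log2 fold change was -1.03 (standard error 0.020), with a log10 of the adjusted p of -549 in edgeR's quasi-likelihood test. This value lies close to the fold line, and under library size alone it was -0.90, so TUBB was then no DEG. TUBBP1, the TUBB pseudogene with the most reads, held 105, 119 and 146 counts in the control samples and 67, 56 and 82 with PB, far below the 12529 to 33200 counts of TUBB. Its log2 fold change was -0.85 (standard error 0.15, adjusted p 1.9e-08 in edgeR's test). An unnamed gene on the opposite strand shares 773 bases with TUBB and held 7 to 16 counts in each sample. Reads in that stretch may have been left out if the counting did not use strand.

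TUBB4B, another broadly expressed beta tubulin on chromosome 9 from 137241287 to 137243707 (ENSG00000188229), fell further. Its level was 245.6, 264.5 and 255.7 FPKM in the control samples and 96.3, 97.1 and 100.1 FPKM with PB. All PB samples thus lay well below the lowest control sample. The log2 fold change was -1.52 (standard error 0.026, log10 of the adjusted p -733 in edgeR's test). TUBB6, on chromosome 18 from 12307669 to 12344320 (ENSG00000176014), is a beta tubulin with wide but usually low expression. TUBB6 had 87.7, 87.6 and 87.7 FPKM in the control samples and 45.3, 47.5 and 45.5 FPKM with PB, with no overlap. Its log2 fold change was -1.06 (standard error 0.027, log10 of the adjusted p -323 in edgeR's test), and it was -0.93 under library size alone. AFG3L2, which lies on the opposite strand and shares 15377 bases with TUBB6, had a log2 fold change of -0.41.

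The remaining beta genes were expressed at a far lower level and showed small differences. TUBB2A (ENSG00000137267, chromosome 6 from 3153497 to 3157544) had 7.65, 6.71 and 7.38 FPKM in the control samples and 6.58, 6.71 and 6.64 FPKM with PB. The groups touched, since the highest PB sample equalled the lowest control sample. The log2 fold change of TUBB2A was -0.26 (standard error 0.074), with an adjusted p of 0.00129 in edgeR's test. It did not pass under library size alone, with an adjusted p of 0.152, or with limma on FPKM values, with an adjusted p of 0.109. TUBB2B, its near-identical neighbour (ENSG00000137285, chromosome 6 from 3223324 to 3231730), had 5.44, 6.43 and 5.85 FPKM in the control samples and 6.45, 6.36 and 6.76 FPKM with PB. The groups overlapped, and the log2 fold change was 0.013 with a 95% interval from -0.12 to 0.14 (adjusted p 0.894 in edgeR's test). TUBB3, the class III beta tubulin (ENSG00000258947, chromosome 16 from 89921392 to 89938761), had 2.39, 1.98 and 2.42 FPKM in the control samples and 2.76, 2.41 and 2.48 FPKM with PB. The log2 fold change of TUBB3 was 0.031 with a 95% interval from -0.12 to 0.19 (adjusted p 0.779 in edgeR's test), so a fall of the size seen for TUBB lies outside the interval. The TUBB3 transcript shared 88.7% of its windows of read length with other transcripts, mostly those of a read-through gene at the same locus. That gene held at most 2 counts in any sample. How reads that fit both genes were counted is not stated. Such reads may have been left out, so the level and share of TUBB3 may be too low, and its change may rest on few of its bases. Since the direction of TUBB2B and TUBB3 turned with single samples left out, no direction is given for them.

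**Figure D2:**
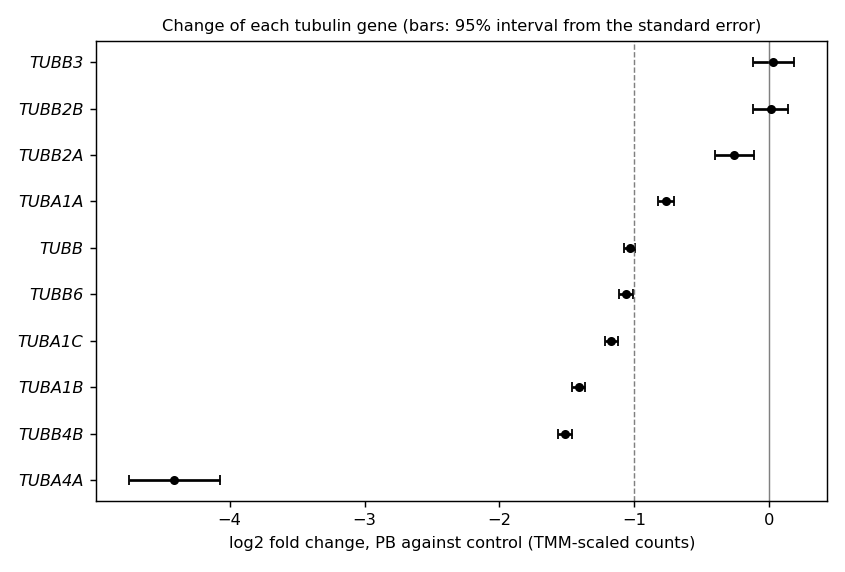
Log2 fold change of PB against control for each of the 10 genes, from TMM-scaled counts, with a 95% interval from the standard error. The standard error rests on a spread pooled over genes. The dashed line marks -1; TUBA4A stands at -4.41, and TUBB2B and TUBB3 lie at 0.013 and 0.031 with intervals that cross 0.

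Among the alpha genes, TUBA1B, the main alpha tubulin of dividing cells, was the most abundant. It lies on chromosome 12 from 49127782 to 49131397 (ENSG00000123416), beside TUBA1A and TUBA1C. TUBA1B had 164.9, 158.7 and 167.9 FPKM in the control samples and 62.4, 69.2 and 70.9 FPKM with PB. The PB samples were all lower by a wide margin, and the log2 fold change was -1.41 (standard error 0.025, log10 of the adjusted p -684 in edgeR's test). TUBA1C (ENSG00000167553, chromosome 12 from 49188736 to 49274600), also broadly expressed, had 93.8, 92.4 and 96.8 FPKM in the control samples and 45.2, 47.5 and 45.5 FPKM with PB. Its log2 fold change was -1.17 (standard error 0.026, log10 of the adjusted p -423 in edgeR's test).

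TUBA1A, an alpha tubulin that is prominent in the developing brain (ENSG00000167552, chromosome 12 from 49184686 to 49189080), fell by the least among the alpha genes. It had 53.1, 54.9 and 54.3 FPKM in the control samples and 34.9, 35.9 and 34.2 FPKM with PB. The groups did not overlap, and the log2 fold change of TUBA1A was -0.76 (standard error 0.031, adjusted p 3.85e-135 in edgeR's test). TUBA1A and TUBA1C overlap by 345 bases on opposite strands, and the counting is not stated to use strand, so reads in that stretch are uncertain. An unnamed gene on the opposite strand (ENSG00000258017) spans TUBA1B over all its 3616 bases and TUBA1A over 3799 bases. It held 10 to 18 counts in each sample. If the counting did not use strand, reads that fit 2 genes may have been left out. The levels of TUBA1B and TUBA1A are uncertain in this respect.

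TUBA4A differed from the other members in the size of its fall. The gene lies on chromosome 2 from 219249710 to 219277902 (ENSG00000127824) and encodes an alpha tubulin known from platelets, muscle and brain. TUBA4A held 222, 269 and 326 counts in the control samples and 7, 17 and 14 counts with PB, or 3.68, 4.25 and 4.01 FPKM against 0.12, 0.29 and 0.20 FPKM. Every PB sample was still above the floor of 3 counts. The log2 fold change was -4.41 (standard error 0.17, adjusted p 6.13e-146 in edgeR's test), and 1.05% of all tested genes had a lower value. Markers of epithelial cells moved in the same direction. CDH1, the epithelial cadherin, had 428, 387 and 522 counts in the control samples and 2, 0 and 2 with PB. The 7 epithelial markers summed to 394.9 to 402.6 FPKM in control samples and 158.5 to 163.8 FPKM with PB. Most of this sum was KRT8 (means of 107.3 and 38.9 FPKM) and KRT18 (means of 285.5 and 120.6 FPKM). Of the 7 markers 5 were lower, 1 (ESRP1) was higher and 1 did not pass, beside 26.1% lower and 24.1% higher of all tested genes. Their part in the TUBA4A result was not tested. TUBA4A overlaps STK16, a kinase gene on the opposite strand, by 628 bases, and STK16 was higher with PB at a log2 fold change of 0.69 (standard error 0.072, adjusted p 4.75e-21 in edgeR's test). Reads in that stretch may have been left out if the counting did not use strand, so the level of TUBA4A is uncertain in this respect.

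The order of levels was nearly the same in both groups. In the control samples it ran from TUBB through TUBB4B, TUBA1B, TUBA1C, TUBB6, TUBA1A, TUBB2A, TUBB2B and TUBA4A to TUBB3, and no neighbours overlapped in FPKM. With PB, TUBB6 and TUBA1C overlapped (45.3 to 47.5 and 45.2 to 47.5 FPKM), as did TUBB2A and TUBB2B (6.58 to 6.71 and 6.36 to 6.76 FPKM). TUBA4A moved to the last place below TUBB3. The order between genes depends on the exonic length by which FPKM divides. This length was 7421 bases for TUBB3, 3574 for TUBA1B and 2037 for TUBB4B. The GENCODE 29 transcripts of these genes had 1769, 1627 and 1637 bases, so the order could differ with transcript lengths.

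The alpha and beta sums fell by a like amount. The 4 alpha genes summed to 315.5, 310.3 and 323.0 FPKM in the control samples and 142.5, 152.8 and 150.7 FPKM with PB, which was 47.0% of the control mean. The 6 beta genes summed to 721.2, 735.1 and 729.9 FPKM in the control samples and 351.2, 359.2 and 363.7 FPKM with PB, which was 49.1% of the control mean. The ratio of the alpha sum to the beta sum was 0.437, 0.422 and 0.442 in the control samples and 0.406, 0.425 and 0.414 with PB, so the ranges overlapped. These sums are over mRNA and are given as a description with no test. Each gene enters divided by its exonic length, so the sums and their ratio would differ with transcript lengths.

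Within these sums the make-up shifted. TUBA1B made up 51.8% ± 0.583 of the alpha sum in the control samples and 45.4% ± 1.63 with PB (SD, n = 3). TUBA1A took the opposite course, from 17.1% ± 0.503 to 23.5% ± 0.912 (SD, n = 3). TUBA1C moved by 1.15 percentage points, with 29.8% ± 0.129 and 31.0% ± 0.748, and TUBA4A went from 1.26% ± 0.103 to 0.136% ± 0.053 (SD, n = 3). Of the beta sum, TUBB made up 50.8% ± 0.804 in the control samples and 55.4% ± 0.218 with PB, while TUBB4B went from 35.0% ± 0.968 to 27.3% ± 0.264 (SD, n = 3). TUBB6 made up 12% ± 0.120 and 12.9% ± 0.359 (SD, n = 3). The minor isotypes took larger shares with PB as the sum shrank. TUBB2A had 0.995% ± 0.075 in control samples and 1.86% ± 0.026 with PB, TUBB2B had 0.810% ± 0.061 and 1.82% ± 0.046, and TUBB3 had 0.311% ± 0.036 and 0.713% ± 0.063 (SD, n = 3). The share of each of the 10 genes did not overlap between the groups, and no test was run on the shares. The size of each share depends on the exonic lengths, as the sums do. The shares of TUBB2A, TUBB2B and TUBB3 are also uncertain, since many of their windows of read length occur in other transcripts.

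**Figure D3:**
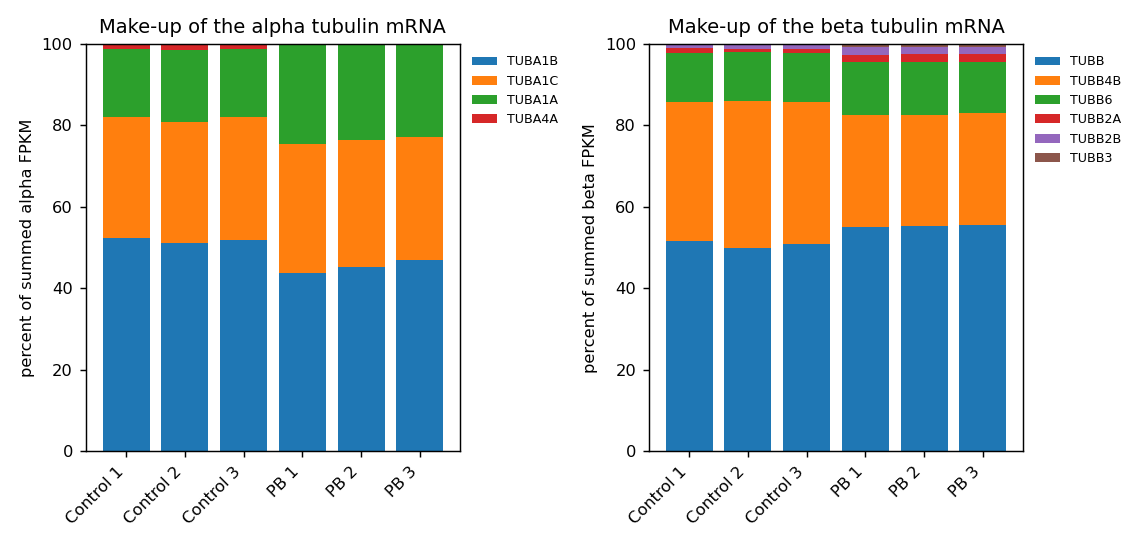
Share of each isotype in the summed FPKM of the alpha genes (left) and of the beta genes (right), as stacked bars for each of the 3 control and 3 PB samples, in percent. TUBA1B goes from a mean of 51.8% to 45.4% of the alpha sum and TUBB4B from 35.0% to 27.3% of the beta sum.

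Promoter sequence was compared because most of these genes fell together. RefSeq promoters (GRCh38.p14, 250 bases before to 50 after a gene start) were at hand for all 10 genes, with 15 windows in all, and the letters were searched on both strands. CCAAT, the letters bound by NF-Y, occurred in at least 1 window of 7 genes and in 9 of the 15 windows, beside 34.6% of all 35116 windows. TATAA, the core of the TATA box, occurred in 5 of the 15 windows, beside 20.4% of all. GGGCGG, the GC box, was in 9 of the 15 windows, beside 45% of all. TTTGAA, a version of the cell cycle homology region, was in 4 of the 15 windows from 2 genes, TUBB4B and TUBA1C, beside 15.2% of all. The other version, TTCGAA, was in 1 window, of TUBB3, beside 1.45% of all. Several windows of a gene overlap or share a locus, so they are not independent.
The 250 bases before the start are printed for 3 genes that differ in their change, TUBB4B with a large fall, TUBA4A with the largest and TUBB2B with none detected. Capitals mark CCAAT or TATAA on either strand.
TUBB4B, chr9:137241037-137241286, plus strand: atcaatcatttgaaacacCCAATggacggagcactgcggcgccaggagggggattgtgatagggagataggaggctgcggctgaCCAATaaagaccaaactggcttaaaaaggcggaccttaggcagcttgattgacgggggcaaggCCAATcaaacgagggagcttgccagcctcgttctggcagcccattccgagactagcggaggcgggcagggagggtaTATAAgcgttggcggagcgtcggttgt
TUBA4A, chr2:219253919-219254168, minus strand: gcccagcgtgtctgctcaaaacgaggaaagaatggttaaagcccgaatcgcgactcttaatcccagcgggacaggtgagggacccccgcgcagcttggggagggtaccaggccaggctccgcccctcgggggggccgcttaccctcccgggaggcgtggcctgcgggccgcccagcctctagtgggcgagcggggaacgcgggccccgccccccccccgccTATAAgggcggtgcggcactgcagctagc
TUBB2B, chr6:3227654-3227903, minus strand: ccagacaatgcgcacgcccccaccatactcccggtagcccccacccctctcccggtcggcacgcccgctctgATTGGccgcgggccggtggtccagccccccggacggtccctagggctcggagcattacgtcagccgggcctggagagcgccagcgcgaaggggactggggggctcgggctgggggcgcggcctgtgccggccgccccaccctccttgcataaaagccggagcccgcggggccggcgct
TUBB4B held CCAAT at 3 places, at -232, -166 and -103 from the start, and TATAA at -27. TUBA4A held TATAA at -29 and no CCAAT. TUBB2B held a single CCAAT, at -178. Among the genes not printed, TUBA1B, with a log2 fold change of -1.41, and TUBB2A held no CCAAT. TUBB3, which did not pass the test, held CCAAT at -79. These matches describe the letters in the window and are not shown to be bound.

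The other tubulin genes did not move in 1 direction. Of 12 such genes, 7 were tested, and 4 of them were lower, 2 higher and 1 not called. Over all tested genes 26.1% were lower and 24.1% higher. TUBG1, the main gamma tubulin, which nucleates microtubules at the centrosome, had 13.8, 15.1 and 13.1 FPKM in the control samples and 7.0, 6.68 and 7.74 FPKM with PB. The log2 fold change of TUBG1 was -1.09 (standard error 0.051, adjusted p 1.31e-99 in edgeR's test). Its close paralog TUBG2 went the other way, with 6.01, 6.58 and 6.20 FPKM against 10.6, 11.5 and 10.3 FPKM, and its log2 fold change was 0.65 (standard error 0.070, adjusted p 1.9e-19 in edgeR's test). TUBD1 and TUBE1, the delta and epsilon tubulins of the centriole, also parted. TUBD1 was lower, at 6.19 ± 0.227 FPKM in the control samples and 2.76 ± 0.117 FPKM with PB (SD, n = 3), and its log2 fold change was -1.30 (standard error 0.089). TUBE1 rose in every PB sample, from 6.69, 7.04 and 6.66 FPKM to 21.1, 21.7 and 21.3 FPKM, and its log2 fold change was 1.52 (standard error 0.039). The low beta genes TUBB4A (1.65 ± 0.225 to 1.10 ± 0.146 FPKM, SD, n = 3) and TUBB1 (0.243 ± 0.078 to 0.127 ± 0.045 FPKM, SD, n = 3) were lower, with log2 fold changes of -0.71 and -1.08 (adjusted p 1.7e-05 and 0.0258 in edgeR's test). The call of TUBB1 was lost with DESeq2 (adjusted p 0.109), with limma (0.167), under library size alone (0.0531), without Control 2 (0.182) and without PB 3 (0.152). TUBA3D had 0.610 ± 0.132 and 0.627 ± 0.159 FPKM (SD, n = 3), with no call.

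Genes that fold tubulin were measured as well. New tubulin chains are folded by the ring-shaped chaperonin CCT, which receives them from prefoldin. Of 15 genes of this list, 12 were lower (53.6% of all genes with a mean of 10 FPKM or more were), 2 were higher and 1 (PDCL3) did not pass. The count of lower genes was 10 under library size alone and with limma, and PFDN1 and PFDN4, both called lower, overlapped between groups in FPKM. The median log2 fold change of this list was -0.46. All 8 CCT subunit genes were lower, from -1.07 for CCT5 to -0.34 for CCT4. CCT5 was the only DEG of the list, with 103.7, 102.8 and 103.0 FPKM in the control samples and 52.7, 55.2 and 54.3 FPKM with PB. PFDN2 and PFDN5, subunits of prefoldin, were higher with log2 fold changes of 0.56 and 0.36. The cofactors that assemble the alpha-beta dimer after CCT were listed with ARL2 and the TBCE-like gene TBCEL, and this list went both ways. Of its 7 genes, 3 were lower (TBCA, TBCB and TBCD), 2 were higher (TBCC and TBCEL) and 0 were DEGs. Their log2 fold changes lay between -0.54 and 0.60, the highest being that of TBCEL, with TBCC at 0.21. Over all tested genes 26.1% were lower and 24.1% higher.

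The calls for the factors of tubulin autoregulation depended on the scaling. TTC5, which binds the nascent chain, had 2.33 ± 0.135 FPKM in the control samples and 2.51 ± 0.213 FPKM with PB (SD, n = 3). In the test TTC5 had a log2 fold change of -0.031 (standard error 0.069, adjusted p 0.754 in edgeR's test). SCAPER, the adaptor between TTC5 and the deadenylase complex, had 2.25, 2.27 and 2.32 FPKM in the control samples and 2.62, 2.5 and 2.57 FPKM with PB, with no overlap. On TMM-scaled counts SCAPER had a log2 fold change of 0.036 (standard error 0.063, adjusted p 0.682 in edgeR's test). CNOT11, the subunit that SCAPER contacts, had 32.0, 31.9 and 31.8 FPKM in the control samples and 35.9, 35.1 and 35.8 FPKM with PB, also with no overlap, and a log2 fold change of 0.024 (standard error 0.038, adjusted p 0.636 in edgeR's test). Of the whole list of 12 genes, 7 subunits of CCR4-NOT were lower by a small amount, the largest fall being -0.45 for CNOT9. In the same list 0 genes were higher and 5 did not pass. Over all tested genes 26.1% were lower and 24.1% higher, and 53.6% were lower among those of 10 FPKM or more. Under library size alone, SCAPER (adjusted p 0.0159), CNOT11 (6.1e-05), CNOT6L (1.63e-06) and CNOT8 (0.0116) were higher in edgeR's test, and CNOT11 was also higher under upper quartile scaling (0.0331) and with limma (0.000485). The values are mRNA levels and say nothing of the activity of this pathway.

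Enzymes that modify tubulin went both ways. Of 26 listed genes, 21 were tested, of which 8 were higher, 7 were lower and 6 did not pass, with a median log2 fold change of -0.063. Over all tested genes 24.1% were higher and 26.1% lower. The higher DEGs were TTLL1 (1.43) and its partner TPGS1 (1.12), which add glutamates to the tail, TTLL3 (1.2), a glycylase, and AGBL2 (1.11), a carboxypeptidase that trims glutamates from tails. The lower DEGs were VASH2 (-1.39), which removes the terminal tyrosine of alpha tubulin, and TTLL6 (-1.63), a glutamylase. Both were near the filter, with control means of 0.357 and 0.327 FPKM. Of the higher DEGs, TPGS1 and AGBL2 were also low, with control means of 0.470 and 0.900 FPKM. ATAT1, the alpha tubulin acetylase, and HDAC6, which reverses it, were higher at log2 fold changes of 0.30 and 0.43.

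Microtubule nucleation and dynamics genes were mixed as well. In the gamma tubulin ring complex, 8 of 12 genes were lower and 2 were higher, beside 26.1% and 24.1% of all tested genes. Among genes of 10 FPKM or more 53.6% were lower. TUBGCP3 (-0.17) and MZT2A (-0.24), both called lower, overlapped between groups in FPKM. The lower count was 6 with DESeq2, limma, library size alone or upper quartile scaling. In this list TUBGCP4, a structural subunit of the ring, was a lower DEG beside TUBG1, from 4.2 ± 0.117 to 1.85 ± 0.021 FPKM (SD, n = 3). STMN1, the stathmin that sequesters free tubulin dimers, had 68.4, 66.5 and 68.9 FPKM in the control samples and 39.7, 40.4 and 40.7 FPKM with PB. Its log2 fold change was -0.89 (standard error 0.026, adjusted p 1.83e-259 in edgeR's test). Among 9 tested stathmin and severing genes, 6 were lower and 0 were higher, beside 26.1% and 24.1% of all tested genes, or 53.6% lower among those of 10 FPKM or more. Among 20 tested lattice and plus end binding genes, 8 were higher and 7 were lower, beside 24.1% and 26.1% of all tested genes. CLIP3 (13.9 ± 1.11 to 37.4 ± 1.83 FPKM, SD, n = 3) and MAP2 (0.967 ± 0.050 to 2.2 ± 0.171 FPKM, SD, n = 3), a microtubule protein of dendrites, were the higher DEGs.

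**Figure D4:**
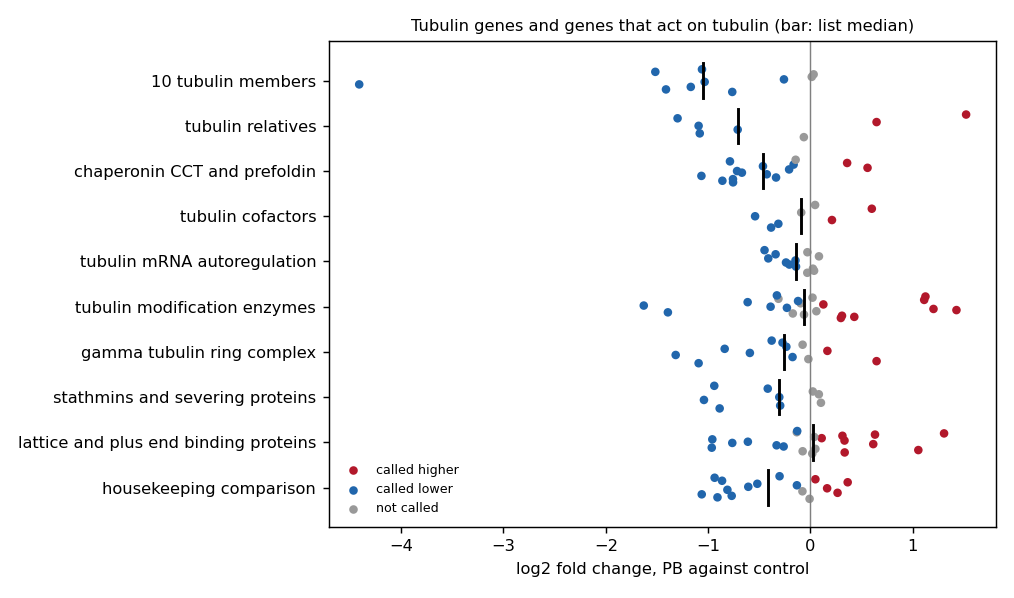
Log2 fold change of PB against control for the 10 tubulin genes and the tested genes of 9 lists, with 1 point per gene, coloured by call, and a bar at the list median. The tubulin median is -1.05, the CCT and prefoldin median is -0.46, and the lattice and plus end list lies at 0.027 with genes on both sides.

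Genes with the same course over the 6 samples as the summed tubulin level were sought among 4484 other genes with a mean of at least 10 FPKM. The highest Pearson correlations of log2 CPM were those of PPIA, BUB1 and CCT7. PPIA is a prolyl isomerase from the housekeeping list, BUB1 a spindle checkpoint kinase and CCT7 a subunit of the chaperonin that folds tubulin. Each correlation was above 0.999, and 23.4% of the 4484 genes had a correlation of at least 0.99. The 6 points fall into the 2 groups, so any gene with a clear fall scores high, and the values are a description.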

How the data were processed

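Poly(A) RNA from 3 control and 3 PB samples was sequenced in paired 150-base reads. The authors deposited raw counts per Ensembl gene and FPKM values in 1 table. The deposited FPKM values matched counts divided by exonic length and sample total to within 0.005 in 100% of cases. The submitters' processing notes name hg38, HTSeq 0.6.1, DESeq2 and Cufflinks 2.2.1, with no role given. The aligner and strandedness are not given in the sources used here. Columns without a matching sample numbered 0.

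Genes that averaged 0.1 FPKM or more were tested on counts with edgeR 4.0.16 in R 4.3.3 (TMM, quasi-likelihood test, library sizes over all genes, Benjamini-Hochberg adjustment), without a replicate block. DESeq2 1.42.0, limma 3.58.1 with trend on log2(FPKM + 0.1), other filters and scalings, a replicate block and each sample left out were alternatives. Very small adjusted p-values are printed as their log10. They are sensitive to the fit, since among genes averaging 1 FPKM or more edgeR gave 4.54e-40 for TUBB and 1.82e-42 for TUBB4B. The main fit had infinite prior degrees of freedom, so a gene's own spread had no weight in its p-value. Among genes averaging 1 FPKM or more the prior degrees of freedom were 42.9. With DESeq2 the adjusted p of TUBA1B was 4.75e-111. The procedures were checked on simulated counts. Total counts limit precision at 3 counts, or 0.136 to 0.191 CPM, for counting error only. The members and lists were chosen with earlier results of these data known. Named were all members, tested tubulin relatives, TTC5, SCAPER, CNOT11, STMN1, the DEGs of each list, and the 3 genes most like the summed level, and the TUBBP1 pseudogene. Other list genes (such as PFDN2, CNOT9, CNOT6L and ATAT1), the single markers given with values (such as CDH1, ESRP1 and CAV1), AFG3L2 and STK16 were named after their values were seen. The symbol MATCAP1 was not matched. Some items that this rule names are not reported here. Housekeeping genes are a comparison list.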

Additional observations from a re-analysis of the deposited data

How the results depend on the processing

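The falls of TUBB, TUBB4B, TUBB6 and the 4 alpha genes kept their direction and passed the test under each of the 14 alternatives. The count of lower DEGs among the members was 6 in the main fit and 4 under library size alone, upper quartile scaling and limma on FPKM values, since TUBB and TUBB6 lay near the fold line. Leaving out single samples gave 6. Library size alone raised the median over tested genes from 0.011 to 0.14, and TUBB from -1.03 to -0.90. TUBB2A did not pass under limma on FPKM values (-0.12) or library size alone (-0.13). TUBB2B turned to -0.032 without Control replicate 1 and to -0.021 without ParishinB replicate 3 (up to 0.068 with other samples left out), and TUBB3 turned to -0.056 without Control replicate 2 and to -0.026 without ParishinB replicate 1 (up to 0.090 with other samples left out). Under library size alone TUBB2B was at 0.15 (adjusted p 0.052) and TUBB3 at 0.16 (adjusted p 0.0693), both in edgeR's test, and with limma they were at 0.14 and 0.17. Scaled by the TMM library size, the alpha sum with PB was 42.9% and the beta sum 44.8% of control.

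In the autoregulation list, limma on FPKM values gave 3 lower and 3 higher genes, and 4 were higher under library size alone, 2 under upper quartile scaling and 1 among genes averaging 1 FPKM or more, with 0 to 1 when a sample was left out. In the modification list, 4 genes were lower among genes averaging 1 FPKM or more and with limma. In the ring complex list, 1 gene was higher with DESeq2 and 1 to 2 when a sample was left out. In the stathmin list, 2 genes were higher with limma and library size alone, 1 with upper quartile scaling and 1 among genes averaging 1 FPKM or more, and 0 to 1 when a sample was left out. The cause of these shifts was not tested.

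The replicate numbers shared by the groups did not pair the samples (correlations of deviations -0.10, 0.046 and -0.084 for numbers 1, 2 and 3). With the replicate block, 8 members were lower and 6 were lower DEGs, as without it, with -1.03 for TUBB.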
